A study of Mus musculus with 16 samples.

Results

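Nr4a1, Nr4a2 and Nr4a3 encode the 3 members of the NR4A family of orphan nuclear receptors, also called Nur77, Nurr1 and NOR-1. Accessibility at the 3 loci was followed in 47 of the 73442 peaks of an ATAC-seq table (mm10), an assay in which a transposase cuts and tags open chromatin. A peak was taken if it overlapped the RefSeq gene body of a member or had that gene as its nearest protein-coding gene within 50 kb. This gave 12 peaks for Nr4a1, 14 for Nr4a2 and 21 for Nr4a3, and all 47 passed the filter of a mean of at least 10 normalised reads over the libraries.

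The libraries came from CD4 single positive thymocytes of C57BL/6J mice, sorted at 40000 to 50000 cells per replicate as Treg (Foxp3-GFP+), preTreg (CD25+ and Foxp3-GFP-), mSP (CD25- and Foxp3-GFP-, TCRβhi and CD24lo) or smSP (the same but TCRβlo and CD24hi). The knockout mice were CNS4KO/YFoxp3GFP/Y (KO), without the CNS4 element of Foxp3, and their controls were CNS4FL/YFoxp3GFP/Y (FL), so both genotypes carried the Foxp3GFP reporter allele. Each genotype was represented by 2 mice, and each mouse gave 1 library of each of the 4 populations, 16 libraries in 8 groups of 2. The ages of the mice and the origin of the KO deletion are not given in the sources used here.

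NR4A receptors bind DNA without a known physiological ligand, and their activity follows mainly from how much of them is made. They are immediate early genes of the T cell receptor, switched on within the first wave after a T cell meets antigen, and Nr4a1 reporters are widely used to read the strength of that signal in the thymus. In mouse thymocytes the family is known both for the death of strongly self-reactive cells and, through Foxp3, for the formation and upkeep of Treg cells, with partial redundancy between members.

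The bases before each start site are shown because the promoter windows of all 3 genes share a feature: each holds 4 copies of TGACG, the core of the cAMP response element bound by CREB, read on either strand. The sequences are RefSeq's for GRCm38.p6, 5′ to 3′ on the strand of the gene, and the capitals mark TGACG or its complement CGTCA. They lie at chr15:101266596-101266845 on the plus strand for Nr4a1, chr2:57124004-57124253 on the minus strand for Nr4a2 and chr4:48045055-48045304 on the plus strand for Nr4a3.
Nr4a1: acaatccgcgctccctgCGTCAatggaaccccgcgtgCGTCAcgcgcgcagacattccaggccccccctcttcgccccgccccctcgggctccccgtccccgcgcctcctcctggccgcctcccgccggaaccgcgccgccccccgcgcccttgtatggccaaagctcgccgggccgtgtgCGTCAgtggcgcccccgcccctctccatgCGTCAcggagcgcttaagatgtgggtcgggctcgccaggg
Nr4a2: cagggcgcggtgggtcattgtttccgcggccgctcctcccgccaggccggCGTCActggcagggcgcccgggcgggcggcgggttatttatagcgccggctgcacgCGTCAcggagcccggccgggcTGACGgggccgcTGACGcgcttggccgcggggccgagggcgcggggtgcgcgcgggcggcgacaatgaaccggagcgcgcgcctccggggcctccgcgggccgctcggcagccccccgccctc
Nr4a3: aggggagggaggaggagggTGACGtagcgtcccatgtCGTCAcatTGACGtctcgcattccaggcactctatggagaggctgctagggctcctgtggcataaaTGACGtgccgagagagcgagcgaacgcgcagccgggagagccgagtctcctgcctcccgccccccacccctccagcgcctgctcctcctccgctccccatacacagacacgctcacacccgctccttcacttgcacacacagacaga

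Counted from the start site, the copies begin at -233, -213, -69 and -40 in Nr4a1, at -200, -144, -123 and -111 in Nr4a2 and at -231, -213, -205 and -147 in Nr4a3. Motifs were searched on both strands in windows of 250 bases before to 50 after the start. Of 32851 such windows of mouse genes, 20.8% held at least 1 TGACG, and 76 windows, or 0.231%, held 4 or more. The 3 windows were rich in G and C, at 72.3% for Nr4a1, 81.7% for Nr4a2 and 64.7% for Nr4a3, against a median of 52.7% over all windows. Among the 6218 windows at least as rich in G and C as that of Nr4a3, 0.563% held 4 or more copies. No member window held the full element TGACGTCA (in 1.79% of all windows), the AP-1 site TGANTCA (7.81%), the NR4A response element AAAGGTCA (1.51%), the EGR site GCGTGGGCG (0.612%) or an SRF site (1.63%). A MEF2 site, found in 1.86% of all windows, began at -167 of Nr4a2 and overlapped none of its TGACG sites. A match of letters is a description and shows no binding.

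Reads in peaks per library numbered 5585827 to 11437401, and a member peak had a median of 34 to 97 reads depending on the library, with a lowest value of 3. Values are normalised reads per peak, and the tests are limma's on log2(value + 1) over 73140 peaks with Benjamini-Hochberg adjustment; a peak is called at an adjusted p under 0.05. The genotype labels were checked at the CNS4 peak, chrX:7570739-7571052, which had 0 reads in all 8 KO libraries and 47.7 to 140 normalised reads in the FL libraries. The 3 Foxp3 peaks summed to 245 to 416 normalised reads in Treg libraries and to at most 6.85 in the others. The mSP and smSP labels went against the sort marker CD24: the 9 Cd24a peaks summed to 548 to 559 in mSP and 247 to 334 in smSP. The 34 peaks of S1pr1, an egress receptor of mature thymocytes and not a sort marker, summed to 1607 to 2108 in mSP and 2914 to 3486 in smSP. As a list, 5 mature markers, S1pr1 among them, summed to 6218 to 7563 in mSP and 8979 to 10393 in smSP. A list of 4 semimature markers, Cd24a among them, overlapped, with 6339 to 6728 in mSP and 6173 to 6717 in smSP. For 1 KO mouse (replicate 2), the titles and descriptions of the mSP and smSP libraries name opposite populations. Titles were followed, and the Cd24a and S1pr1 ranges above, which include this mouse by title, do not overlap between mSP and smSP. Counts of members against mSP or smSP are also given without the mSP and smSP libraries of this mouse. Peaks of a double positive thymocyte list (5 of its 6 genes had a peak, Ptcra had none) summed to 1403 to 2691 in Treg and 1255 to 1350 in preTreg, against 3286 to 3488 in mSP and 2911 to 3207 in smSP. The 3 B cell markers with a peak summed to 252 to 334 in Treg and 152 to 213 in preTreg, against 359 to 414 in mSP and 331 to 350 in smSP. Of 5 NK and innate-like markers, 4 had a peak and Ncr1 had none, and they summed to 1686 to 1718 in Treg and 1700 to 1997 in preTreg, with 2374 to 2545 in mSP and 2087 to 2327 in smSP. Of 5 erythroid and stromal markers, 3 had a peak and Hbb-bt and Pdgfra had none, with sums of 332 to 412 in Treg, 263 to 294 in preTreg, 520 to 544 in mSP and 429 to 492 in smSP. Of 5 myeloid and dendritic markers, 2 had a peak and Lyz2, Csf1r and Itgax had none. In direction against mSP, this list differed from the double positive, B cell, NK and innate-like, and erythroid and stromal lists. It had 852 to 941 in Treg, 825 to 909 in preTreg, 722 to 779 in mSP and 802 to 865 in smSP. The part of these lists in the population differences was not tested.

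The 3 genes differed in how their accessibility was laid out. Nr4a1 (chr15:101253902-101274795, plus strand) had 9 peaks in the gene body and 3 upstream of it, and its 3 strongest peaks, at -20.4, -0.074 and -8.25 kb from the start site, held 70.6% of its reads. The Nr4a1 gene body in RefSeq begins well upstream of that start site, so the peaks at -12.8 to -8.25 kb lie within it. Nr4a2 (chr2:57106830-57124003, minus strand) had all 14 peaks in the gene body, 13 of them between +6.24 and +9.83 kb, with no peak above a mean of 300. Nr4a3 (chr4:48045078-48086447, plus strand) had 12 peaks in the body and 9 outside it, and 6 of its 21 peaks had a mean above 300. Exons, introns and UTRs are not distinguished here. Close peaks can share fragments, and peaks of 1 gene are not independent.

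**Figure D1:**
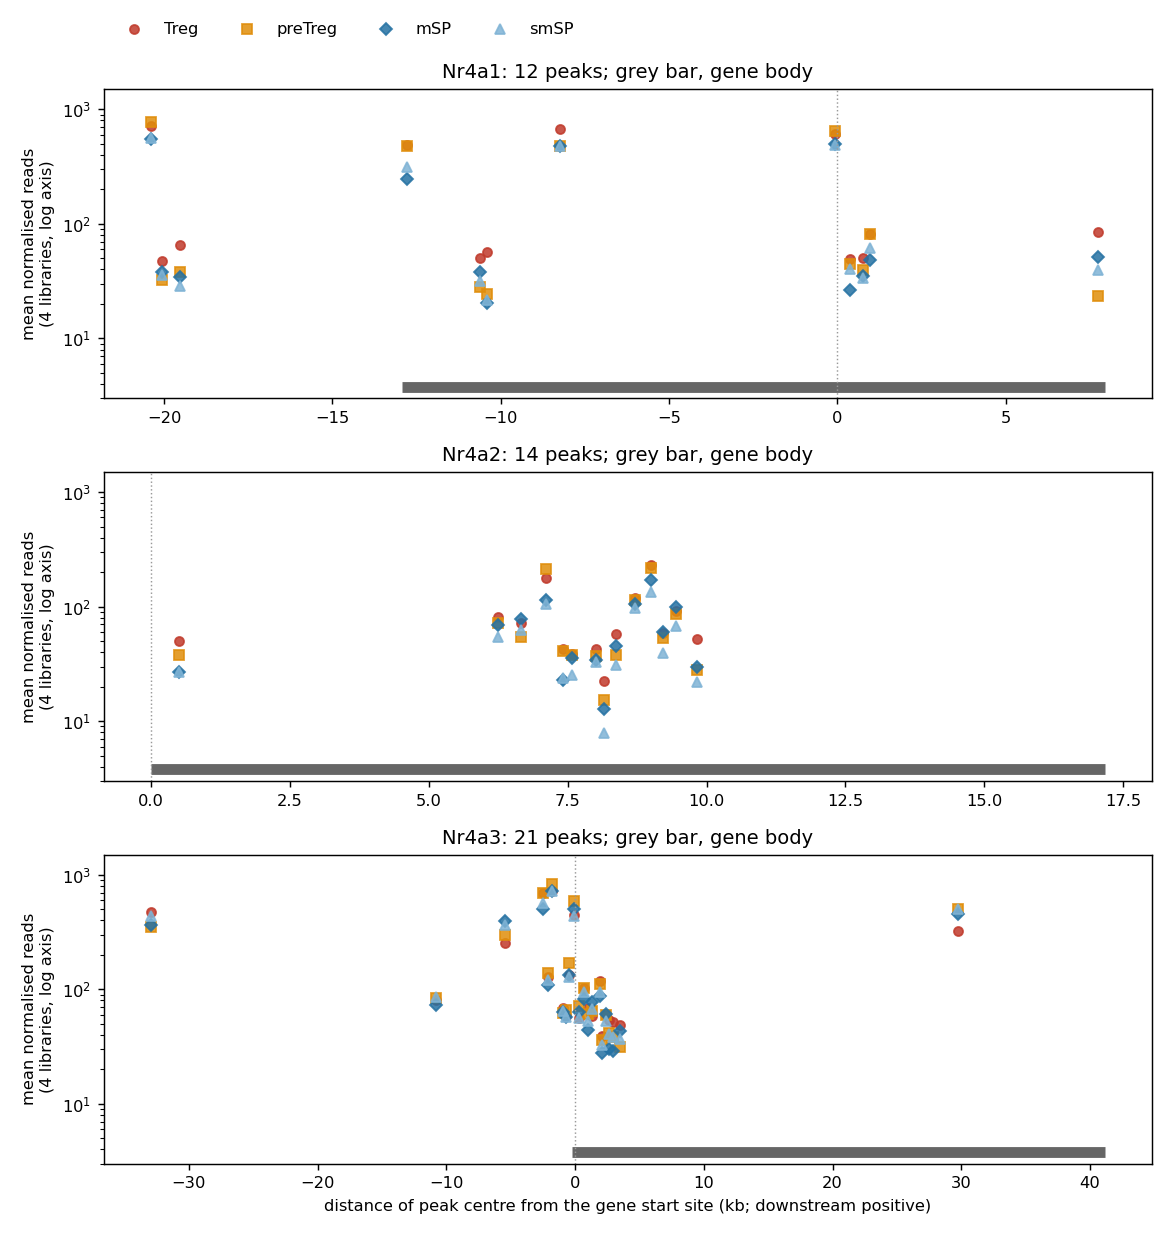
Mean normalised reads of each member peak in Treg, preTreg, mSP and smSP (4 libraries each, log axis) against the distance of its centre from the gene start site in kb, with the gene body as a grey bar. Nr4a1 shows 4 strong peaks from -20.4 to -0.074 kb, Nr4a2 a cluster from +6.24 to +9.83 kb, and Nr4a3 strong peaks at both outer ends of the locus.

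Summed over its peaks, Nr4a1 was most accessible in Treg cells, with 807 and 825 normalised reads per kb of peak in KO and 851 and 896 in FL libraries. PreTreg libraries had 717 and 801 in KO and 788 and 760 in FL, below every Treg library. The mSP libraries had 551 and 581 in KO and 599 and 614 in FL, and the smSP libraries 513 and 642 in KO and 596 and 677 in FL. Every Treg and preTreg library lay above every mSP and smSP library, whereas mSP and smSP overlapped. In bulk libraries, fewer open cells of a type and less signal per cell cannot be told apart.

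Nr4a2 was the least accessible of the family per kb, averaging 447 ± 60.7 in Treg libraries and 412 ± 31.1 in preTreg libraries, against 355 ± 33.8 in mSP and 287 ± 24.8 in smSP (SD, n = 4 each). Neighbouring populations in that order overlapped except mSP and smSP, where the lowest mSP library, 322, lay above the highest smSP library, 310. Its order was therefore Treg, preTreg, mSP and smSP by mean, and only mSP and smSP, among neighbours in that order, did not overlap.

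Nr4a3 took another order, with preTreg highest at 835 ± 7.22 per kb, then smSP at 770 ± 27.2, Treg at 765 ± 12.2 and mSP at 746 ± 5.40 (SD, n = 4 each). On the deposited scaling, all 4 preTreg libraries, at 828 to 845, lay above the other 12, whose highest value, in smSP, was 800. Over all peaks, normalised reads summed to 8081732 to 8229363 in preTreg libraries and 7791013 to 7881666 in smSP libraries. The sums per gene were not rescaled to equal totals. The Treg libraries, at 755 to 781, lay above the mSP libraries, at 739 to 751, and the smSP libraries, at 738 to 800, overlapped both. These sums carry no test, since the peaks of a gene moved in different directions.

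**Figure D2:**
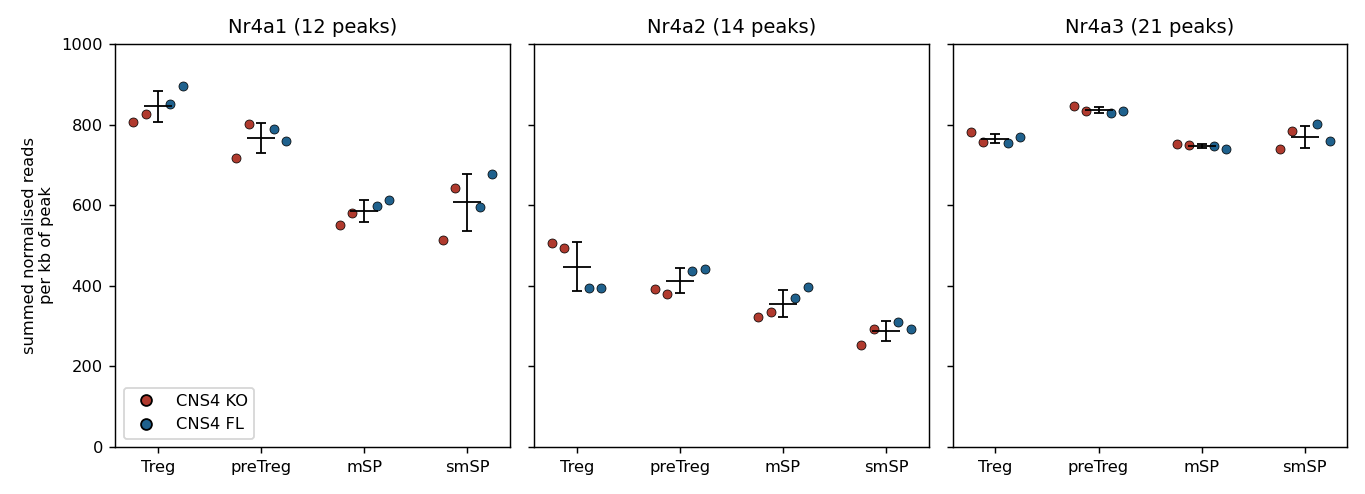
Summed normalised reads per kb of peak for the 3 genes in each library, KO and FL as points, with the mean and SD of the 4 libraries of a population. Nr4a1 stands higher in Treg and preTreg than in mSP and smSP, Nr4a2 declines by mean across the 4 populations, and Nr4a3 is highest in preTreg.

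Peak by peak, 6 of the 47 members were called in none of the population comparisons, against 23.9% of all peaks tested. In Treg against preTreg, 11 member peaks were higher and 5 lower, against 14.2% higher and 14.6% lower among all peaks tested. In Treg against mSP, 23 were higher and 4 lower (background 26.8% and 27.3%), and in Treg against smSP 23 were higher and 2 lower (background 20.1% and 22%). In preTreg against mSP, 17 were higher and 3 lower (background 28.9% and 29.4%), and in preTreg against smSP 15 were higher and 3 lower (background 23.1% and 24.1%). In mSP against smSP, 5 were higher and 2 lower, close to the background of 8.65% and 7.3%. As shares of the 47, the higher calls came to 23.4% in Treg against preTreg, 48.9% in Treg against either single positive population, and 36.2% and 31.9% in preTreg against mSP and smSP. These comparisons share libraries, so their counts are not independent of each other.

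**Figure D3:**
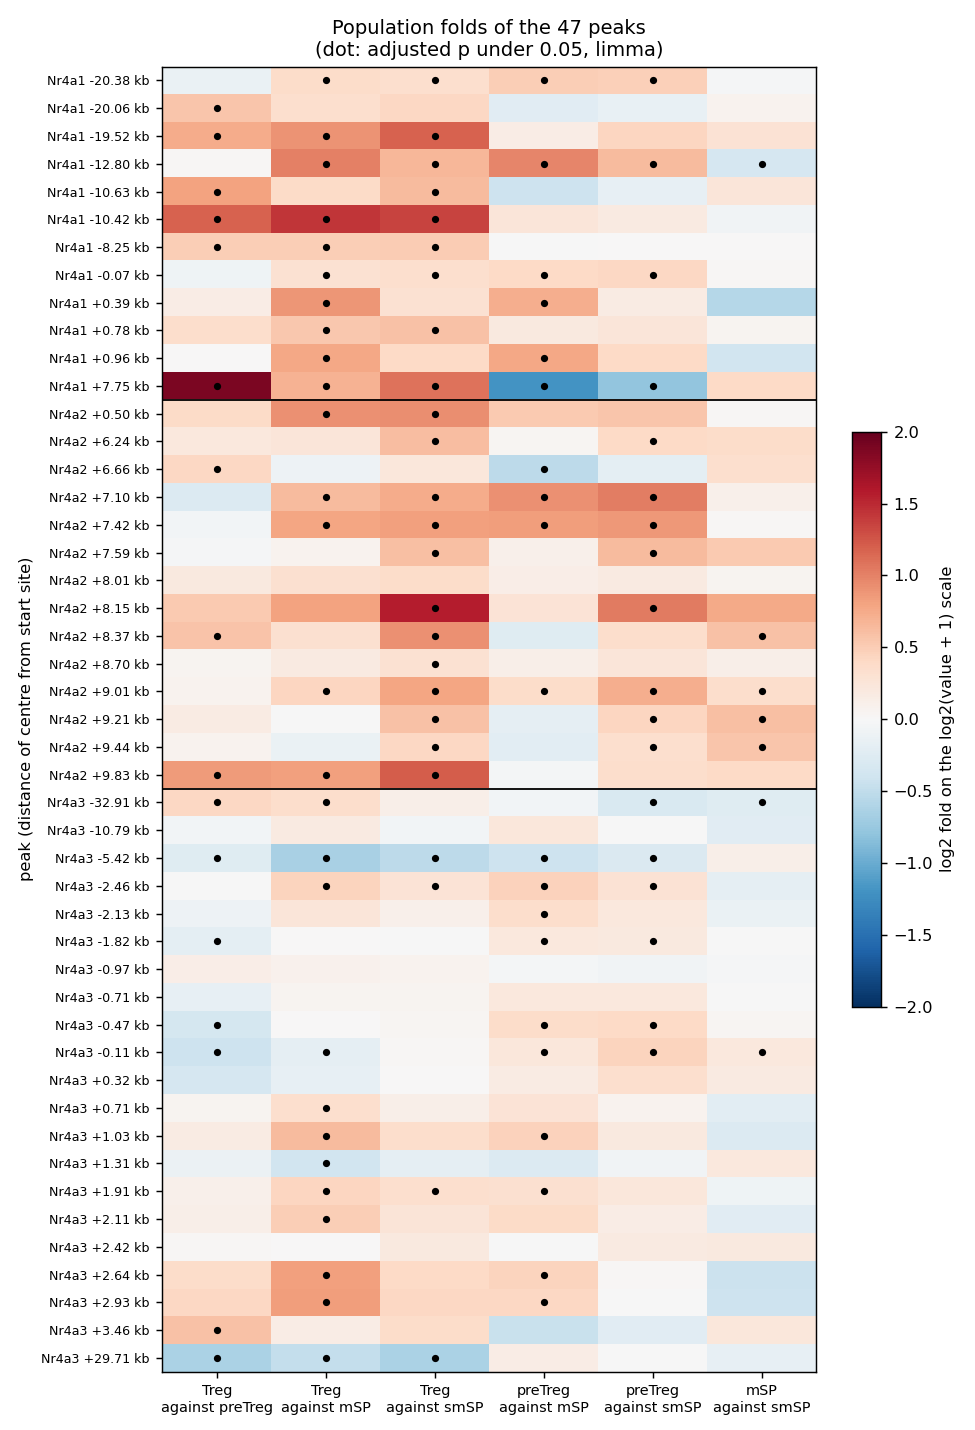
Log2 folds of the 47 peaks, ordered by gene and distance from the start site, in 6 population comparisons (red, higher in the population named first; blue, lower), with a dot where the adjusted p is under 0.05. Most Nr4a1 and Nr4a2 peaks are red in the Treg comparisons, and the Nr4a3 peaks at -5.42 and +29.7 kb are blue there.

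Nr4a1, whose product is the family member most closely tied to TCR signal strength was more open in Treg than in the single positive cells at most of its peaks. Of its 12 peaks, 10 were higher in Treg than in mSP and 9 higher than in smSP, with none lower, and the median log2 fold was 0.62 and 0.55, against 0.03 and 0.02 over all peaks. The higher calls are 83.3% and 75.0% of its peaks, against 26.8% and 20.1% of all peaks. Against preTreg, 6 of the 12 were higher in Treg and none lower, with a median of 0.42 (50.0% higher, against 14.2% of all peaks). Of the 12 peaks, 3 formed a set shared by Treg and preTreg, and 4 a set higher in Treg than in all others.

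The shared set held the peaks at -20.4, -12.8 and -0.074 kb, each called higher in Treg and in preTreg than in both single positive populations. At -12.8 kb (chr15:101253732-101254369), close to the upstream end of the gene body, KO and FL Treg libraries had 409, 512, 505 and 532 normalised reads, and preTreg libraries 463, 457, 480 and 508. The mSP libraries had 199, 271, 246 and 263, and the smSP libraries 227, 311, 327 and 390, in the same order of 2 KO and 2 FL. No mSP or smSP library reached the Treg or preTreg libraries. The log2 fold was 0.97 ± 0.10 in preTreg against mSP (SE; adjusted p = 5.00e-09) and 1.00 ± 0.10 in Treg against mSP (adjusted p = 2.40e-09), while Treg and preTreg differed by 0.03 ± 0.10 (adjusted p = 0.861; limma).

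The start-site peak of Nr4a1 (chr15:101266481-101267064), which covers its promoter window, changed less. It held 553, 601, 594 and 710 in Treg and 570, 712, 679 and 647 in preTreg, against 458, 488, 525 and 511 in mSP and 466, 519, 480 and 480 in smSP. All 8 Treg and preTreg libraries lay above all 8 mSP and smSP libraries. Its log2 fold reached 0.39 ± 0.07 in preTreg against mSP and 0.31 ± 0.07 in Treg against mSP (SE; adjusted p = 1.39e-05 and 0.000403, limma).

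The strongest Nr4a1 peak, at -20.4 kb (chr15:101246234-101246698) upstream of the gene body, held 725, 660, 728 and 738 in Treg and 702, 791, 836 and 788 in preTreg, against 515, 537, 576 and 586 in mSP and 481, 600, 514 and 668 in smSP. The highest smSP library, an FL one, passed the lowest Treg library, a KO one, and the other single positive libraries lay below all Treg and preTreg libraries. Its log2 fold was 0.49 ± 0.07 in preTreg against mSP and 0.36 ± 0.07 in Treg against mSP (SE; adjusted p = 1.03e-06 and 8.74e-05, limma).

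The second set, at -19.5, -10.4, -8.25 and +7.75 kb, was called higher in Treg than in each of the other 3 populations. The peak at -8.25 kb (chr15:101258287-101258909) separated Treg without overlap, with 653, 678, 679 and 694 normalised reads. It held 492, 531, 444 and 453 in preTreg, 497, 472, 480 and 472 in mSP and 392, 492, 487 and 548 in smSP, so that no other library came near the Treg values. Its log2 fold was 0.50 ± 0.07 in Treg against preTreg and 0.49 ± 0.07 in Treg against mSP (SE; adjusted p = 6.27e-07 and 1.79e-07), and preTreg and mSP differed by less than the spread (limma, adjusted p = 0.965).

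The 2 weaker Nr4a1 peaks at +7.75 and -10.4 kb had the largest folds of the locus. At +7.75 kb (chr15:101274509-101274686), near the downstream end of the gene, Treg libraries held 71.8, 68.2, 108 and 89.7 normalised reads and preTreg libraries 18.5, 32.2, 30.0 and 12.4. The mSP libraries held 48.2, 43.1, 53.6 and 60.1 and the smSP libraries 26.9, 41.3, 35.7 and 54.9, so preTreg lay below Treg and mSP without overlap and overlapped smSP. It was the 1 member called lower in preTreg than in each other population (6.25% of all peaks), with log2 folds of 1.89 ± 0.23 in Treg against preTreg and -1.19 ± 0.23 in preTreg against mSP (SE; adjusted p = 1.07e-07 and 4.23e-05, limma). At -10.4 kb (chr15:101256364-101256490), Treg libraries held 73.0, 56.6, 50.6 and 46.9 and all other libraries 15.7 to 28.3, a log2 fold of 1.43 ± 0.22 in Treg against mSP (SE; adjusted p = 1.46e-06, limma).

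**Figure D4:**
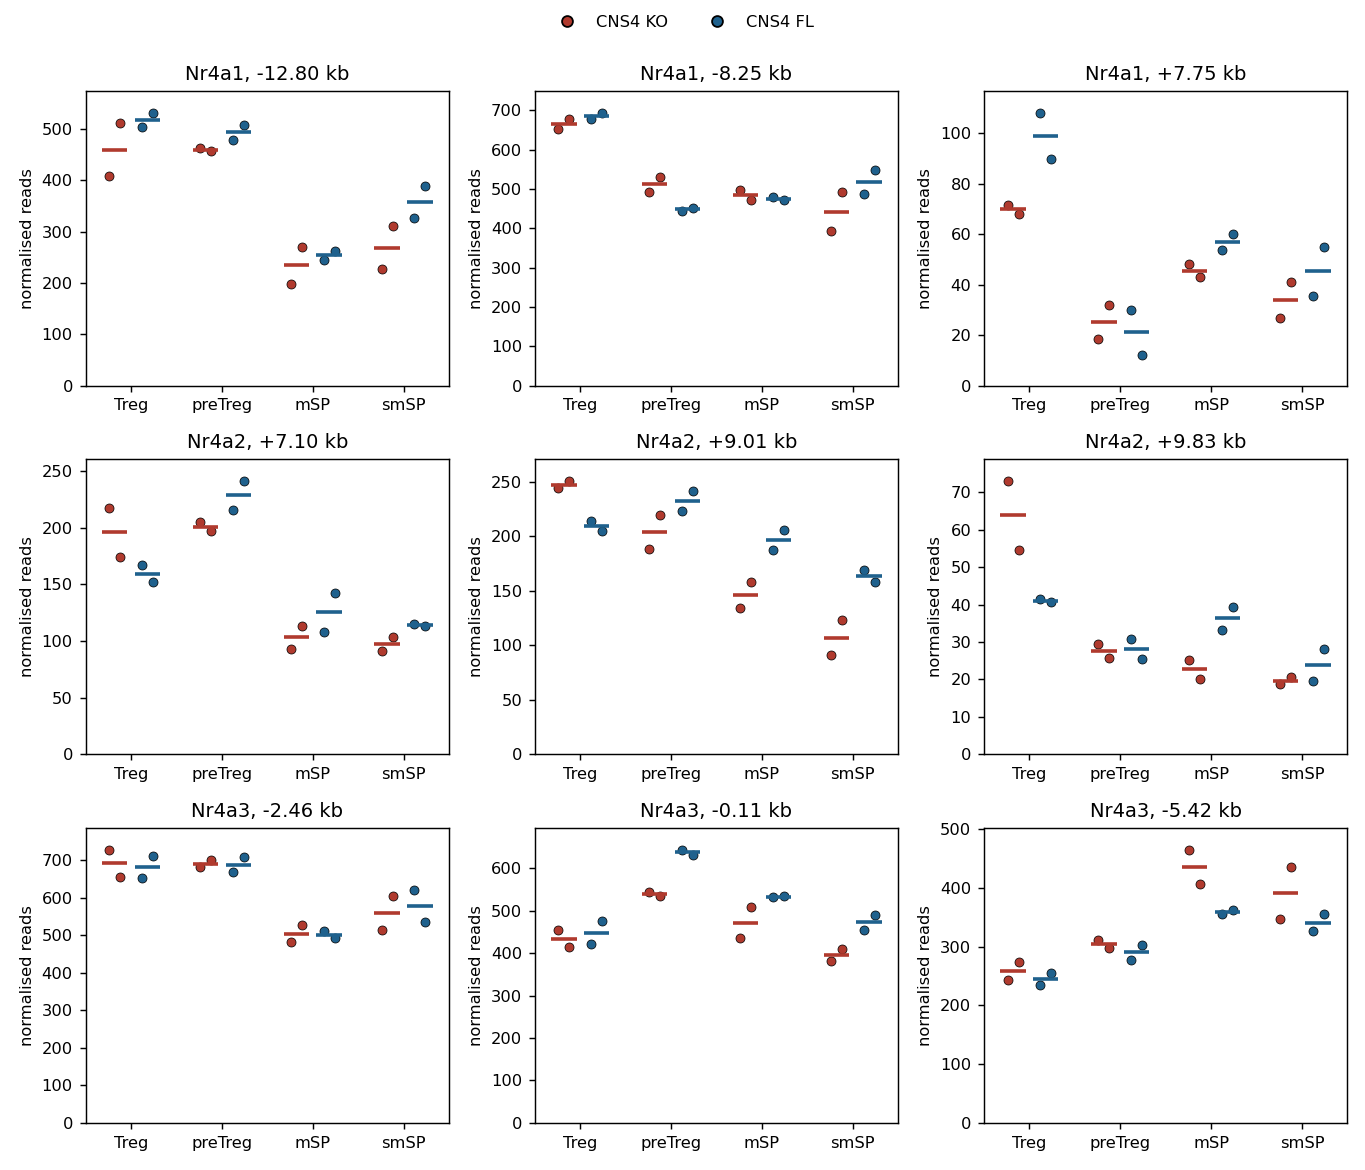
Normalised reads per library at 3 peaks of each gene (distance of the centre from the start site in each title), KO left of FL in each population, with bars at the mean of 2 libraries. The Nr4a1 peak at -8.25 kb is high in Treg alone, the Nr4a1 peak at -12.8 kb and the Nr4a2 peak at +7.10 kb in Treg and preTreg, and the Nr4a3 start-site peak in preTreg.

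Nr4a2, whose product is reported to bind regulatory regions of Foxp3 in mouse T cells, had its largest median log2 folds in the 3 comparisons with smSP. Of its 14 peaks, 12 were higher in Treg than in smSP, 8 higher in preTreg than in smSP and 4 higher in mSP than in smSP, with none lower in any of the 3 comparisons. These higher calls are 85.7%, 57.1% and 28.6% of its peaks, against 20.1%, 23.1% and 8.65% of all peaks. The median log2 folds were 0.67, 0.41 and 0.36, against 0.02, 0.02 and 0.01 over all peaks. Against mSP the gene moved less, with 5 peaks higher and none lower in Treg, and 3 higher and 1 lower in preTreg. The higher calls there are 35.7% and 21.4%, against 26.8% and 28.9% of all peaks. Only 3 of the 14 were called in Treg against preTreg, all of them higher, at +6.66, +8.37 and +9.83 kb. That is 21.4% higher, against 14.2% of all peaks.

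At +7.10 kb (chr2:57116704-57117094), the widest Nr4a2 peak, Treg libraries held 218, 174, 167 and 152 normalised reads and preTreg libraries 205, 197, 216 and 241. The mSP libraries held 92.9, 113, 108 and 143 and the smSP libraries 91.3, 103, 115 and 113, all below every Treg and preTreg library. On the log2 scale the fold was 0.92 ± 0.12 in preTreg against mSP, 1.02 ± 0.12 in preTreg against smSP and 0.64 ± 0.12 in Treg against mSP (SE; adjusted p = 2.67e-08, 6.49e-09 and 1.59e-05, limma).

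The strongest Nr4a2 peak, at +9.01 kb (chr2:57114896-57115098), held 244, 251, 214 and 205 in Treg and 188, 220, 224 and 242 in preTreg, against 134, 158, 187 and 206 in mSP and 91.3, 123, 169 and 158 in smSP. Treg and preTreg overlapped, and every smSP library lay below every preTreg library. It was called higher in both Treg and preTreg than in both single positive populations, with log2 folds of 0.79 ± 0.10 in Treg against smSP and 0.72 ± 0.10 in preTreg against smSP (SE; adjusted p = 1.09e-07 and 7.01e-07, limma).

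At +9.83 kb (chr2:57114116-57114231), the Nr4a2 peak called higher in Treg than in the other 3 populations, Treg libraries held 73.0, 54.7, 41.5 and 40.7, the first pair KO. The preTreg libraries held 25.6 to 30.8, the mSP libraries 20.1 to 39.4 and the smSP libraries 18.8 to 28.2, all below the lowest Treg library. The log2 fold was 0.85 ± 0.21 in Treg against preTreg (SE; adjusted p = 0.00184, limma). The peak at +0.504 kb, closest of the Nr4a2 members to the start, held 57.2, 64.3, 34.4 and 45.5 in Treg and 16.1, 40.2, 26.4 and 25.1 in mSP, a log2 fold of 0.91 ± 0.24 (SE; adjusted p = 0.00189), and 1 KO mSP library lay within the range of Treg. The reverse direction was seen at +6.66 kb, with 54.5, 51.5, 59.1 and 50.3 in preTreg and 66.6, 77.5, 89.4 and 78.9 in mSP, which did not overlap (log2 fold -0.52 ± 0.15 SE, adjusted p = 0.00309, limma). At +8.70 kb, the third strongest Nr4a2 peak, levels ran from 84.6 to 133 over all libraries, and only Treg against smSP was called (log2 fold 0.30 ± 0.12 SE, adjusted p = 0.0491, limma).

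Nr4a2 has no member peak at its start site, because the 2 peaks over its promoter window lie in LOC105244150 by the nearest-gene rule. They are given here beside the members. The peak centred at -117 bp (chr2:57124030-57124211) held 58.4, 45.1, 62.7 and 63.5 in Treg and 37.9, 35.8, 46.2 and 51.2 in preTreg, against 36.7, 25.8, 29.8 and 23.3 in mSP and 17.5, 25.0, 44.9 and 34.5 in smSP. The lowest Treg library, at 45.1, lay just above the highest smSP library, at 44.9, and well above mSP. The log2 fold in Treg was 0.97 ± 0.19 against mSP and 0.96 ± 0.19 against smSP (SE; adjusted p = 6.69e-05 and 0.000110, limma). The peak centred at -285 bp (chr2:57124212-57124365) was also higher in Treg, by 1.37 ± 0.33 against mSP and 1.94 ± 0.33 against smSP on the log2 scale (SE; adjusted p = 0.000815 and 1.42e-05).

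Nr4a3, which overlaps with Nr4a1 in its functions in mouse T cells, did not move as a unit. In Treg against preTreg, 2 of its 21 peaks were higher and 5 lower, in Treg against mSP 8 were higher and 4 lower, and in Treg against smSP 2 were higher and 2 lower. The higher shares are 9.52%, 38.1% and 9.52%, against 14.2%, 26.8% and 20.1% of all peaks. The lower shares are 23.8%, 19.0% and 9.52%, against 14.6%, 27.3% and 22%. In preTreg, 9 peaks were higher and 1 lower than in mSP, and 4 higher and 2 lower than in smSP. Against mSP that is 42.9% higher and 4.76% lower (background 28.9% and 29.4%), and against smSP 19.0% and 9.52% (background 23.1% and 24.1%). All peaks were thus called in both directions too. Its median log2 folds lay between -0.09 in mSP against smSP and 0.22 in preTreg against mSP.

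The start-site peak of Nr4a3 was most open in preTreg cells by mean, but most other Nr4a3 peaks near the start were not called highest there. The peak over its promoter window (chr4:48044992-48045403, centred at -0.108 kb) held 455, 414, 422 and 475 in Treg and 545, 535, 644 and 633 in preTreg. It held 435, 510, 532 and 535 in mSP and 382, 411, 456 and 490 in smSP, so that preTreg lay above Treg and smSP without overlap and just overlapped mSP, whose highest library held 535. The log2 fold was -0.41 ± 0.07 in Treg against preTreg, 0.44 ± 0.07 in preTreg against smSP and 0.23 ± 0.07 in preTreg against mSP (SE; adjusted p = 1.25e-05, 2.20e-06 and 0.00471, limma). The last of these fell to 0.10 with an adjusted p of 0.231 after quantile normalisation.

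The neighbouring peaks at -0.47 and -1.82 kb were, like the start-site peak, called higher in preTreg than in each other population. The strongest Nr4a3 peak, at -1.82 kb (chr4:48043248-48043714), held 748, 754, 656 and 718 in Treg and 813, 814, 827 and 844 in preTreg, against 674, 682, 760 and 748 in mSP and 654, 694, 788 and 747 in smSP. All preTreg libraries lay above all others, by a small margin, with a log2 fold of -0.20 ± 0.05 in Treg against preTreg (SE; adjusted p = 0.00431, limma). Under quantile normalisation that fold was -0.09 with an adjusted p of 0.231, and the fold in preTreg against mSP was 0.06 with an adjusted p of 0.348 (limma), so neither was called.

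At -2.46 kb (chr4:48042594-48043090), next to it, the pattern was the one seen at Nr4a1, with 728, 656, 654 and 713 in Treg and 682, 701, 669 and 709 in preTreg. The mSP libraries held 482, 527, 512 and 492 and the smSP libraries 515, 604, 620 and 535, all below every Treg and preTreg library. Folds on the log2 scale were 0.45 ± 0.07 in Treg against mSP and 0.46 ± 0.07 in preTreg against mSP (SE; adjusted p = 4.66e-07 and 3.76e-07, limma).

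The opposite direction was seen at -5.42 kb (chr4:48039699-48040069), which held 243, 274, 235 and 255 in Treg and 311, 298, 277 and 303 in preTreg. It held 465, 406, 356 and 362 in mSP and 347, 435, 327 and 355 in smSP. The 3 levels of Treg, preTreg and the single positive cells did not overlap. Its log2 fold was -0.65 ± 0.08 in Treg against mSP and -0.41 ± 0.08 in preTreg against mSP (SE; adjusted p = 3.37e-08 and 7.47e-05, limma). Together with the peak at +29.7 kb it was 1 of 2 members called lower in Treg than in all 3 other populations, a pattern of 6.73% of all peaks.

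At the far upstream end, the peak at -32.9 kb (chr4:48012108-48012672) held 415, 433, 561 and 472 in Treg and 374, 379, 347 and 303 in preTreg, against 417, 307, 364 and 379 in mSP and 455, 430, 456 and 390 in smSP. Treg lay above preTreg without overlap (log2 fold 0.42 ± 0.08 SE, adjusted p = 0.000194, limma). Within the gene, the weak peaks at +1.03 and +2.93 kb were higher in Treg than in mSP, by 0.63 ± 0.16 and 0.83 ± 0.18 on the log2 scale (SE; adjusted p = 0.000972 and 0.000178, limma). At +2.93 kb Treg libraries held 46.2 to 59.7 and mSP libraries 25.2 to 33.2, and at +1.03 kb Treg libraries held 55.9 to 75.4 and mSP libraries 34.4 to 54.7. At +3.46 kb the Treg libraries held 33.6 to 46.9 and, in 1 FL library, 75.9, and the preTreg libraries 24.8 to 37.9 (log2 fold 0.59 ± 0.21 SE, adjusted p = 0.0310, limma). This call was lost under 7 of 28 alternatives, among them leaving out Treg KO replicate 1, Treg FL replicate 1, preTreg KO replicate 2, preTreg FL replicate 1 or preTreg FL replicate 2, with folds of 0.42 to 0.59 without those libraries.

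Over all 3 genes, 7 members were called higher in both Treg and preTreg than in both mSP and smSP, a pattern of 10.9% of all peaks tested. They were 3 of Nr4a1, 3 of Nr4a2 and the Nr4a3 peak at -2.46 kb. The 5 members higher in Treg than in all others were 4 of Nr4a1 and 1 of Nr4a2, against 5.57% of all peaks, and the 3 highest in preTreg were all of Nr4a3, against 5.84%. Of 15 member peaks centred within 2 kb of a start site, 0 were higher and 3 lower in Treg than in preTreg, and of 32 farther peaks, 11 were higher and 2 lower, against 14.2% higher and 14.6% lower among all peaks. The difference between near and far peaks was not tested. Without the single positive libraries of KO replicate 2, the 7, 5, 3 and 2 members of these patterns, the last lower in Treg than in all others, remained in them, and the Nr4a1 peak at +0.96 kb joined the first.

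The 7 calls between mSP and smSP were 4 Nr4a2 peaks and the Nr4a3 start-site peak, higher in mSP, and the peaks of Nr4a1 at -12.8 kb and Nr4a3 at -32.9 kb, lower in mSP. At +9.21 kb of Nr4a2, mSP libraries held 58.5, 43.1, 66.4 and 73.5 and smSP libraries 33.6, 41.3, 40.3 and 40.8, a log2 fold of 0.60 ± 0.16 (SE; adjusted p = 0.0101, limma). Without the mSP and smSP libraries of KO replicate 2, 5 calls were made, against 9973 of all 73140 peaks. None of the 7 was called when those libraries were assigned by their descriptions. That loss was not particular to the members: by description, 0 of all 73140 peaks were called in mSP against smSP, and by title 11664 were. Leaving out 1 library left 3 calls without mSP KO replicate 2, mSP FL replicate 1 or mSP FL replicate 2, and 4 without smSP KO replicate 1. Without both single positive libraries of KO replicate 2, 26 and 25 members were called in Treg against mSP and smSP. In preTreg, 18 and 19 were called against mSP and smSP. Of all 73140 peaks, 37955 and 29277 were then called in Treg against mSP and smSP, and 40989 and 32229 in preTreg. Of these, 18819, 14226, 20250 and 15926 were higher in Treg or preTreg. By gene, Nr4a1 then had 10 peaks higher in Treg than in mSP and 10 than in smSP, and Nr4a2 had 11 higher in Treg than in smSP, 6 higher in preTreg than in smSP and 6 higher in Treg than in mSP. For Nr4a3, 8 peaks were then higher and 2 lower in Treg than in mSP, and 6 higher and 1 lower in preTreg than in mSP.

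The CNS4 genotype left the 3 loci mostly without a call. In Treg cells 0 of 47 members were called by limma (background 1.77%) and 0 by edgeR. At an unadjusted p under 0.05 there were 6 in limma, against 10601 of all 73140 peaks. In preTreg 1 was called (0.409%), in mSP 1 (0.246%), and in smSP 0 (0.0848%), with 0 by edgeR in smSP. In smSP 8 members had an unadjusted p under 0.05, against 7338 of all 73140 peaks. On 1 mean per mouse over the 4 populations, 1 member was called (2.36%). Without KO replicate 2 that fit rests on 1 KO mouse, so no calls are counted from it. In the test of genotype by population, 0 were called by limma (0.402%) and 0 by edgeR. There 9 members had an unadjusted p under 0.05, against 7747 of all 73140 peaks. The single member behind all 3 calls was the Nr4a3 peak at +29.7 kb.

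That peak (chr4:48074788-48075242), in the downstream part of the Nr4a3 gene body, held 615 and 555 normalised reads in KO and 431 and 410 in FL preTreg cells. In mSP it held 583 and 505 in KO and 408 and 326 in FL, and in smSP 600 and 542 in KO and 461 and 405 in FL. In Treg it held 317 and 341 in KO and 291 and 336 in FL. KO libraries lay above FL libraries without overlap in preTreg, mSP and smSP, whereas the genotypes overlapped in Treg, where the peak was lowest in both. The log2 fold in KO against FL was 0.48 ± 0.11 in preTreg (SE; adjusted p = 0.0416), 0.57 ± 0.11 in mSP (adjusted p = 0.0140), 0.40 ± 0.11 in smSP (adjusted p = 0.149) and 0.07 ± 0.11 in Treg (adjusted p = 0.834; limma).

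Over all populations the KO mice averaged 529 and 486 and the FL mice 398 and 369, a log2 fold of 0.38 ± 0.06 (SE; adjusted p = 0.000417, limma on 4 mice). The fold stayed at 0.33 to 0.43 in all 12 alternatives run for it. Where both mice of each genotype were kept, the call held, with adjusted p-values up to 0.000934 (limma after quantile normalisation). Assigning KO replicate 2 by its descriptions, 1 of the 12, could not change the result, since each mouse entered as the mean of its 4 populations. The difference in genotype effect between populations was not called (adjusted p = 0.341). The call in preTreg was lost on leaving out any 1 of the 4 preTreg libraries (0.40 to 0.55), and the call in mSP without KO replicate 1 (0.47) or FL replicate 2 (0.41); both were lost when KO replicate 2 was assigned by its descriptions. By description, the genotype calls over all peaks fell as well, from 299 to 9 in preTreg and from 180 to 13 in mSP. Over both genotypes the level of the peak at +29.7 kb was lower in Treg than in preTreg, with a log2 fold of -0.63 ± 0.08 (SE, adjusted p = 1.13e-07, limma).

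**Figure D5:**
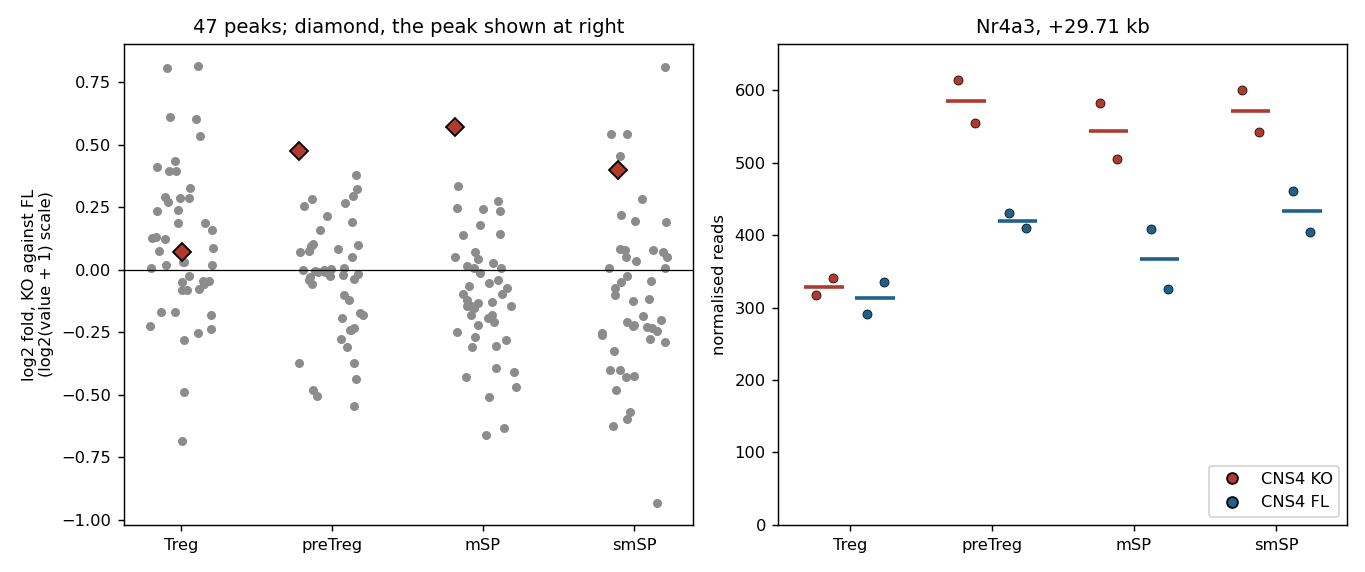
Left, log2 folds of the 47 member peaks in KO against FL in each population, with the Nr4a3 peak at +29.7 kb as a diamond; right, normalised reads per library at that peak, KO left of FL, with bars at the mean of 2 libraries. The KO libraries lie above the FL libraries in preTreg, mSP and smSP, and the genotypes overlap in Treg.

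Nr4a2 had the most even genotype pattern below the calling threshold. In Treg, 13 of its 14 peaks had a positive KO against FL fold, with a median of 0.29 on the log2 scale, and its summed level per kb was 506 and 493 in KO and 395 in both FL libraries. In preTreg and mSP the summed level ran the other way, with 391 and 380 in KO and 436 and 442 in FL preTreg, and 322 and 335 in KO and 369 and 396 in FL mSP. The smSP libraries had 252 and 293 in KO and 310 and 292 in FL, which overlapped. The peak at +9.01 kb came closest to a call among them, with a log2 fold of -0.62 ± 0.15 in smSP (SE, adjusted p = 0.0839, limma). That fold was -0.83 without KO replicate 2, which leaves 1 KO library there. For Nr4a1 the summed levels given above were lower in KO than in FL libraries without overlap in Treg and in mSP, and the genotypes overlapped in preTreg and smSP. Its median KO against FL log2 folds were -0.13 in Treg, 0.13 in preTreg and -0.10 in both mSP and smSP. These sums carry no test.

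Genes with a profile like that of the members were sought among 5014 genes with at least 5 tested peaks, by the Pearson correlation of log2 summed reads over the 16 libraries, which share 4 populations and 4 mice. Nr4a1 was most like Pde4a (r = 0.96), a cAMP phosphodiesterase, followed by Trib1 (0.94), Amd1 (0.94), Dennd4a (0.93) and Ralgds (0.93). Nr4a2 was most like Klf4 (0.96), a transcription factor, followed by Spcs3 (0.95), Lactb2 (0.94), Rbpj (0.93), the DNA-binding effector of Notch, and Cryzl1 (0.93). Nr4a3 was most like Akap11 (0.95), which anchors protein kinase A, followed by Nrd1 (0.92), Ythdc1 (0.92), Mdm1 (0.91) and Bfsp1 (0.90). Between members, r was 0.75 for Nr4a1 and Nr4a2, 0.43 for Nr4a1 and Nr4a3 and 0.32 for Nr4a2 and Nr4a3. By this measure Nr4a2 stood at rank 640 of the genes most like Nr4a1, and Nr4a3 at rank 1856.

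Other genes of the pathway were counted on 3 lists, and from each the pair with the largest absolute median log2 fold is named in Treg against preTreg and in preTreg against mSP. Among 24 TCR immediate early and feedback genes with 410 peaks, 206 peaks were higher and 70 lower in preTreg than in mSP, with a median log2 fold of 0.36 against 0.03 over all peaks, and 70 were higher and 50 lower in Treg than in preTreg (median -0.03). Of all peaks tested, 28.9% were higher and 29.4% lower in preTreg than in mSP, and 14.2% and 14.6% in Treg than in preTreg. Fosb, a subunit of AP-1, had 13 of 14 peaks higher in preTreg than in mSP (median 0.98) and Fosl2, another AP-1 subunit, 6 of 7 (0.85). In that comparison 18 of the 24 genes had more peaks higher than lower and 6 had more lower, such as Egr2, with 2 of 17 higher and 7 lower. Jun had 14 of 17 peaks higher in Treg than in preTreg (0.64) and Dusp5, a phosphatase of ERK, 11 of 24 (0.47), with none lower in either gene. Here 12 genes had more peaks higher and 8 more lower, among them Nfatc1 with 1 of 41 higher and 16 lower, and Egr1 with 1 of 13 higher and 6 lower. Egr2, Nfatc1 and Egr1 were chosen after their values were seen.

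Among 14 MEF2, CREB and HDAC genes, which include known regulators of Nr4a1 transcription, 36 of 158 peaks were higher and 18 lower in Treg than in preTreg, and 61 were higher and 50 lower in preTreg than in mSP. The background for both lists in this paragraph is 14.2% higher and 14.6% lower in Treg against preTreg. In preTreg against mSP it is 28.9% and 29.4%. Hdac9, a class IIa deacetylase that represses MEF2 targets, had 18 of 20 peaks higher and 1 lower in Treg than in preTreg (median 1.70), and 12 higher and 3 lower in preTreg than in mSP (0.93). Mef2c had 1 of 11 peaks higher and 7 lower in Treg than in preTreg (-0.41), and 0 higher and 9 lower in preTreg than in mSP (-1.02). Among 19 NR4A partners and reported targets with 356 peaks, 106 were higher and 48 lower in Treg than in preTreg, and 150 were higher and 80 lower in preTreg than in mSP. Foxp3 had 3 of 3 peaks higher in Treg than in preTreg (median 5.59) and Havcr2 2 of 3 (0.95). Treg and preTreg were sorted apart by Foxp3-GFP, and preTreg and mSP by CD25 (Il2ra). Foxp3 and Il2ra are on this list, so its counts are not independent of the sort. Ctla4 had 20 of 27 peaks higher and 5 lower in preTreg than in mSP (1.42), and Tigit 18 of 23 higher and 3 lower (0.95).

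Without the single positive libraries of KO replicate 2, the lists had 200, 56 and 143 peaks higher in preTreg than in mSP. They had 68, 49 and 72 lower. Of all 73140 peaks, 20250 were then higher and 20739 lower. By genotype, the 3 lists had 6 of 410, 4 of 158 and 5 of 356 peaks called in Treg, against 1.77% of all peaks. Over all populations, the TCR list had 19 peaks called (4.63%), 2 higher and 17 lower in KO, against 2.36% of all peaks. The MEF2, CREB and HDAC list had 6 of 158, 5 higher and 1 lower, and the partner and target list 8 of 356, all higher in KO.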

How the data were processed

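ATAC-seq was made from 16 libraries of thymic Treg, preTreg, mSP and smSP cells, grouped by the labels' titles. Per the submitters' processing notes, the authors used Trimmomatic 0.36, STAR 2.5.4b on mm10, SAMtools 1.10, Genrich, with no version stated, and R 3.6.3 with DESeq2 1.24.0. The deposited values are a signal: each library's reads in a peak over that library's size factor, here 0.697 to 1.45. Any shift of reads for the transposase is not stated in those notes. Whole reads were recovered for 100% of values within 0.0001 reads.

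Values were tested as log2(value + 1) with limma 3.58.1 in R 4.3.3, with trend and robust options, after dropping peaks whose mean fell below 10, with 1 mean per group of population and genotype, 1 spread shared by all groups, and Benjamini-Hochberg adjustment over all peaks at 0.05. Folds are on that scale and understate changes of weak peaks. For genotype over all populations, each mouse entered once as its mean. With 2 mice per genotype, the spread at a peak rests partly on other peaks. On the recovered reads, edgeR 4.0.16 (TMM, quasi-likelihood) called 17, 18, 15, 28, 23 and 7 members in Treg against preTreg, preTreg against mSP, preTreg against smSP, Treg against mSP, Treg against smSP and mSP against smSP, and DESeq2 1.42.0 was a further alternative.

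Members and gene lists were chosen with earlier results of these data known. Peaks given by library were, for each gene, the 3 with the highest mean, those over the promoter window, the called peak with the largest rise and fall in Treg against preTreg, preTreg against mSP, Treg against mSP and mSP against smSP, and any peak called by genotype. Peaks named outside this rule were chosen after their values were seen. Names and promoter windows came from RefSeq (GRCm38.p6); all 3 genes matched. No genome was used, so peak sequences are not shown. Of the B cell marker list, only the genes with a peak are reported here.

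Per the labels, libraries with 1 replicate number and genotype came from the same mouse, which pairs the population comparisons. Deviations from group means correlated weakly within a mouse, with r from -0.009 to 0.088 over 12 pairs of populations. Library intervals are not given, and reads are not independent molecules.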

Additional observations from a re-analysis of the deposited data

Results flagged for a closer look

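Of 100 groups of 4 libraries (1 peak in 1 population), 4 held a library that stood apart from the other 3 by Dixon's test at 95%, and chance flags about 1 in 20 groups. At the Nr4a1 peak at -20.4 kb in Treg, KO replicate 2 held 660.5 normalised reads, below the other 3 at 725 to 738. At the Nr4a2 peak at +8.70 kb in mSP, FL replicate 2 held 118 against 99.0 to 102 in the others. At the Nr4a2 peak at +0.504 kb in smSP, FL replicate 2 held 44.7 against 20.2 to 21.9. At the Nr4a2 peak at +9.21 kb in smSP, KO replicate 1 held 33.6 against 40.3 to 41.3.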

How the results depend on the processing

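With a log2 fold of at least 1 required, 2 members were called in Treg against preTreg. In preTreg, 1 was called against mSP and 2 against smSP. In Treg, 2 were called against mSP and 5 against smSP. In mSP against smSP and in each genotype comparison with a call, 0 were called, so most calls are changes of under 2-fold. Of all 73140 peaks, 6313, 16627, 11183, 16296, 12348 and 2399 were called at that fold in these population comparisons, in the same order. The share of members was smaller in each. Other counts that moved by over 1.5 times from those in the report were as follows. In Treg against preTreg, quantile normalisation gave 9 and gene body peaks alone gave 10. In mSP against smSP, DESeq2 gave 2 and the KO replicate 2 libraries by description gave 0. By description, KO against FL gave 0 in preTreg and 0 in mSP. Over all 73140 peaks, the description labels gave 0 calls in mSP against smSP, and 9 and 13 for genotype in preTreg and mSP. Leaving out 1 library gave 12 to 16 calls in Treg against preTreg, 17 to 20 in preTreg against mSP, 14 to 21 in preTreg against smSP, 22 to 28 in Treg against mSP, 20 to 26 in Treg against smSP and 3 to 7 in mSP against smSP. It gave 0 to 1 for genotype in preTreg, mSP and smSP and for the interaction, where the smSP and interaction calls appeared without smSP KO replicate 2, and leaving out a mouse gave 1 to 6 over all populations, 6 without KO replicate 2.

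With the mouse as a replicate block, the population comparisons gave 16, 20, 18, 27, 24 and 7 calls in the order Treg against preTreg, preTreg against mSP, preTreg against smSP, Treg against mSP, Treg against smSP and mSP against smSP. For genotype, the replicate block pairs mice by number alone, and it gave 1 call in smSP (Nr4a2 at +9.01 kb) and 4 over all populations. Leaving out both single positive libraries of KO replicate 2, chosen after seeing the data, leaves 1 KO library in each of mSP and smSP. Genotype calls are not counted from that fit. Counting the 2 promoter window peaks of Nr4a2 as members, also chosen after seeing the data, moved no count by over 1.5 times. The cause of these shifts was not tested. Of 38 named folds, 25 were called under every alternative run, 13 were lost under at least 1, and 0 changed direction. Folds in Treg or preTreg against smSP, and some others given above, are not in this tally.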
